A study of Homo sapiens with 50 samples.

Results

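The HOX genes and CDX2 were examined in the authors' list of 6481 genes with a mapped pause site in DLD-1, a cell line from a human colorectal adenocarcinoma. Described here are 8 of its entries, namely 7 HOX genes (HOXA9, HOXA10, HOXA11, HOXA13, HOXB6, HOXB9 and HOXD13) and CDX2. Members were chosen by 2 criteria: presence in the list, and a gene name of HOXA, HOXB, HOXC or HOXD with a number, or CDX2, read from the RefSeq gene at the same position. Presence in the list is itself a measured choice of the authors, and earlier results on the pause distances were known when the genes were picked, so both are given as description with no test.

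The study's 50 chromatin immunoprecipitation sequencing libraries, among them an input, came from DLD-1 cells expressing OsTIR1. This plant receptor directs proteins with an auxin-inducible degron (AID) to degradation. The lines were the OsTIR1 parent, SPT6-AID, PAF1-AID, SPT6-AID/PAF1-AID and SPT6-AID/NELF-C-AID. Cells were treated with vehicle for 2 h or with 500 µM auxin for 2 or 6 h, or were taken at 0 h of auxin. The lists examined here belong to no single library, line or treatment. They give 1 gene interval and 1 pause site of 1 bp per gene, with no score, replicate or depth, so no error or sample spread stands behind any position below.

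HOX genes encode homeodomain transcription factors that give cells their position along the body axis. They lie in 4 clusters, HOXA to HOXD, in which all genes point the same way and are numbered by paralog group from the end that acts toward the head to the end that acts toward the tail. Low-numbered genes are typically switched on early and in anterior tissue, and groups 9 to 13 later and in posterior tissue such as the hindgut, limb and urogenital tract. CDX2 belongs to the related ParaHox genes and is the transcription factor that sets intestinal identity in the epithelium. Promoter-proximal pausing is a halt of RNA polymerase II shortly after initiation, from which elongation factors release it.

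The sequences directly upstream of the starts are shown first, because a pause distance is counted from a start and these starts differ between annotations. RefSeq promoter sequences (GRCh38.p14, the same primary coordinates as the authors' hg38) were matched for 6 of the 8 genes: HOXA9, HOXA10, HOXA11, HOXA13, HOXD13 and CDX2. Each line gives the 150 bases before the RefSeq start nearest to the authors' 5' end, read 5' to 3' on the gene's strand. Capitals mark matches, on either strand, to 3 promoter motifs. The core of the TATA box was searched as TATAAA, which appears from the other strand as TTTATA. The CCAAT box appears from the other strand as ATTGG, and the GC box was searched as GGGCGG, which appears from the other strand as CCGCCC. Neighbouring capitals can belong to overlapping or adjoining matches, as in HOXA13 and HOXD13.
HOXA9 (chr7:27165538-27165687, minus strand): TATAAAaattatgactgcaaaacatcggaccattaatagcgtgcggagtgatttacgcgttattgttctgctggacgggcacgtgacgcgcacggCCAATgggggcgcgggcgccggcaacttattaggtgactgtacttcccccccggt
HOXA10 (chr7:27174321-27174470, minus strand): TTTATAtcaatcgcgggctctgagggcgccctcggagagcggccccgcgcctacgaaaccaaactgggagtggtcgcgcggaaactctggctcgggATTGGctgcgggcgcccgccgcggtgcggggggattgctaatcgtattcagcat
HOXA11 (chr7:27185233-27185382, minus strand): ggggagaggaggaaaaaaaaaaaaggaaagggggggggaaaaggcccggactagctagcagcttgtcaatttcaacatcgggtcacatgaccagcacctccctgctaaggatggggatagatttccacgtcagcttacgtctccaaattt
HOXA13 (chr7:27200092-27200241, minus strand): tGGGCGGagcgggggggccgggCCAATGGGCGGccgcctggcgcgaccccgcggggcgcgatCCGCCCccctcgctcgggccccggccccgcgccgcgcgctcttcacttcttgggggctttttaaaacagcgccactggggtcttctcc
HOXD13 (chr2:176092571-176092720, plus strand): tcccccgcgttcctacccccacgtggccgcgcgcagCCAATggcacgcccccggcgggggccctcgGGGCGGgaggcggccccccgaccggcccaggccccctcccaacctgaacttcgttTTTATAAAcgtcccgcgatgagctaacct
CDX2 (chr13:27969316-27969465, minus strand): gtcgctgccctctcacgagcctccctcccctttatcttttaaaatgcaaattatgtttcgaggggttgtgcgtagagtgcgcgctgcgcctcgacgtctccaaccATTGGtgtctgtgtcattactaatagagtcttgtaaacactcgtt

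A CCAAT match was present in 5 of these 6 stretches. Of 6978 promoter windows of genes named in the list, 25.2% held one in the same 150 bases, and of all 35116 RefSeq promoter windows 23.5% did. The matches began 55 bases before the RefSeq start in HOXA9 (position -55), at -54 in HOXA10, at -128 in HOXA13, at -114 in HOXD13 and at -45 in CDX2, and HOXA11 had none. TATAAA or its reverse was present in 3 of 6, against 2.89% of windows of listed genes and 6.71% of all windows. In HOXD13 it began at -27 (TATAAA) and -29 (TTTATA), and in HOXA9 and HOXA10 at -150, the edge of the stretch. GGGCGG was present in 2 of 6, HOXA13 with matches at -149, -123 and -88 and HOXD13 with 1 at -84, against 59.7% of windows of listed genes and 36.8% of all windows. HOXA11 matched none of these motifs in its 150 bases. The HOXA10 stretch precedes a RefSeq start 666 bp upstream of the listed 5' end. Its CCAAT and TATAAA matches, counted above, thus lie farther still from the start used for its pause distance. A match describes letters only, and the number of genes is too small for more than a description.

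The promoters also differed in base composition. Over the 300-base RefSeq window (250 before and 50 after the start), GC content was 76.3% in HOXA13 and 74.0% in HOXD13, both above the median of 65.7% for promoters of listed genes. It was 62.7% in HOXA10, 51.3% in HOXA11, 50.3% in CDX2 and 48.0% in HOXA9. The CpG dinucleotide, whose density marks CpG island promoters, occurred 44 times in HOXA13 and 13 times in HOXA11, against a median of 27. HOXA13 and HOXA11 are adjacent in the list, so the highest and the lowest CpG count among these 6 promoters belonged to neighbours.

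The share of HOX genes in the list differed widely between clusters. Of the 38 protein-coding HOX genes examined here, 7 were listed (18.4%), against 29.3% of all RefSeq protein-coding genes. The HOXA cluster on chromosome 7 had 4 of the 10 genes examined in the list and HOXB on chromosome 17 had 2 of 10. HOXD on chromosome 2 had 1 of 9, and HOXC on chromosome 12 had 0 of 9. The whole HOXC interval of 117200 bp held 0 entries of any kind. Its nearest listed neighbours were CALCOCO1, 211378 bp away on one side, and an unnamed entry 124335 bp away on the other. Absence from the list does not show that a gene lacks paused polymerase, since the sources used here do not give the criteria for listing.

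**Figure D1:**
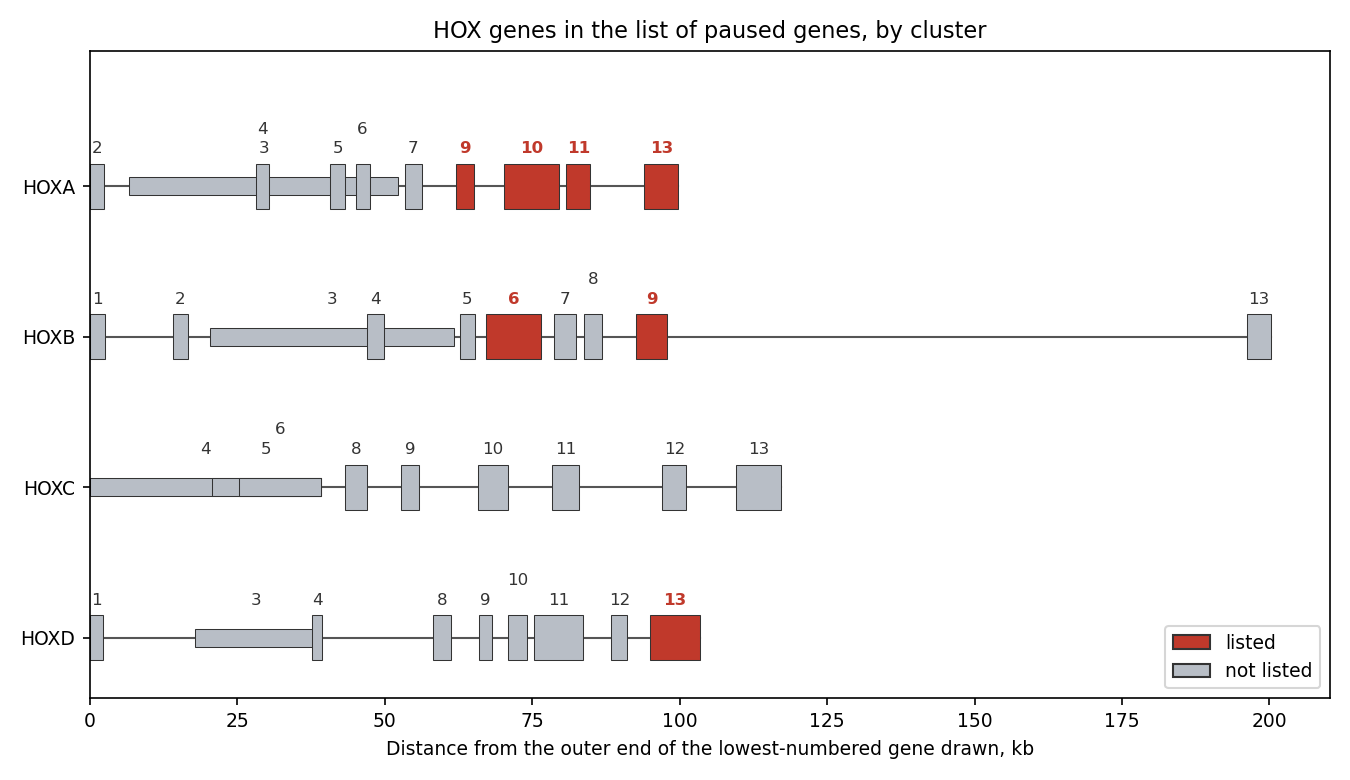
Map of the HOX clusters, with the distance in kb from the outer end of the lowest-numbered gene drawn on the horizontal axis, 1 row per cluster and boxes for RefSeq gene extents, red where listed and grey where not; numbers are paralog groups and thin boxes are extents over 12 kb that overlap other genes. The HOXA row has 4 neighbouring red genes at its group 13 end, and the HOXC row has none.

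By position within the clusters, 6 of 16 genes of groups 9 to 13 were listed (37.5%) and 1 of 20 genes of groups 2 to 8 (5.0%). HOXB1 and HOXD1, of group 1, were not listed and fall in neither set. Gene length and crowding moved with the split by group. The shortest of all 6481 entries measured 3005 bp, and 15 of the 38 HOX genes were shorter than that in RefSeq, 11 of them in groups 2 to 8. Another 7 HOX genes were long enough but overlapped another protein-coding gene or lay within 1000 bp of one, and 0 of these 7 were listed. These were HOXA3, HOXB3, HOXB13, HOXC4, HOXC5, HOXC6 and HOXD3, of which HOXB13 lay 4 bp from PRAC2 and the others overlapped a neighbour. Across all RefSeq protein-coding genes of at least 3005 bp, 32.5% were listed. With a coding gene within 1000 bp the share was 16.9%, and without one 42.1%. Only 5847 of the 6481 entries could be named, and genes behind unnamed entries count as unlisted in these shares. No other entry overlapped any of the 38 HOX genes, so their counts are not lowered in this way. Whether unnamed entries weigh more on crowded genes was not tested.

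Among the 16 HOX genes that were long enough in RefSeq and had no coding gene within 1000 bp, 7 were listed (43.8%). Of all coding genes of that kind 42.1% were listed, so the lower share of HOX genes over all lengths was not seen here. The limit of 3005 bp comes from the authors' intervals, which can be far shorter than RefSeq extents. HOXA10 measured 9257 bp in RefSeq and 3050 bp in the list, and HOXD13 8458 and 3144 bp. Unlisted genes have no interval in the list, so whether they pass the limit by the authors' annotation is unknown. By cluster the counts within these 16 were 4 of 4 in HOXA, 2 of 3 in HOXB, 1 of 3 in HOXD and 0 of 6 in HOXC. These are few genes per cluster, and neighbours in a cluster are not independent, so the counts are description only. Groups 9 to 13 had 6 of 13 and groups 2 to 8 had 1 of 3, too few to compare at this length and spacing. The 9 unlisted genes of this kind were HOXB7, HOXC8, HOXC9, HOXC10, HOXC11, HOXC12, HOXC13, HOXD10 and HOXD11. By RefSeq extent, HOXC13 was 7714 bp long and 8358 bp from its neighbour, and HOXC10 5134 bp and 7502 bp. Both were longer and farther from other genes than the listed HOXA11, at 4076 bp and 1295 bp. Between listed intervals, HOXA11 lay 7502 bp from HOXA10, so the contrast in spacing depends on the annotation. Whether the listed genes differ in transcription from the unlisted ones was not tested.

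**Figure D2:**
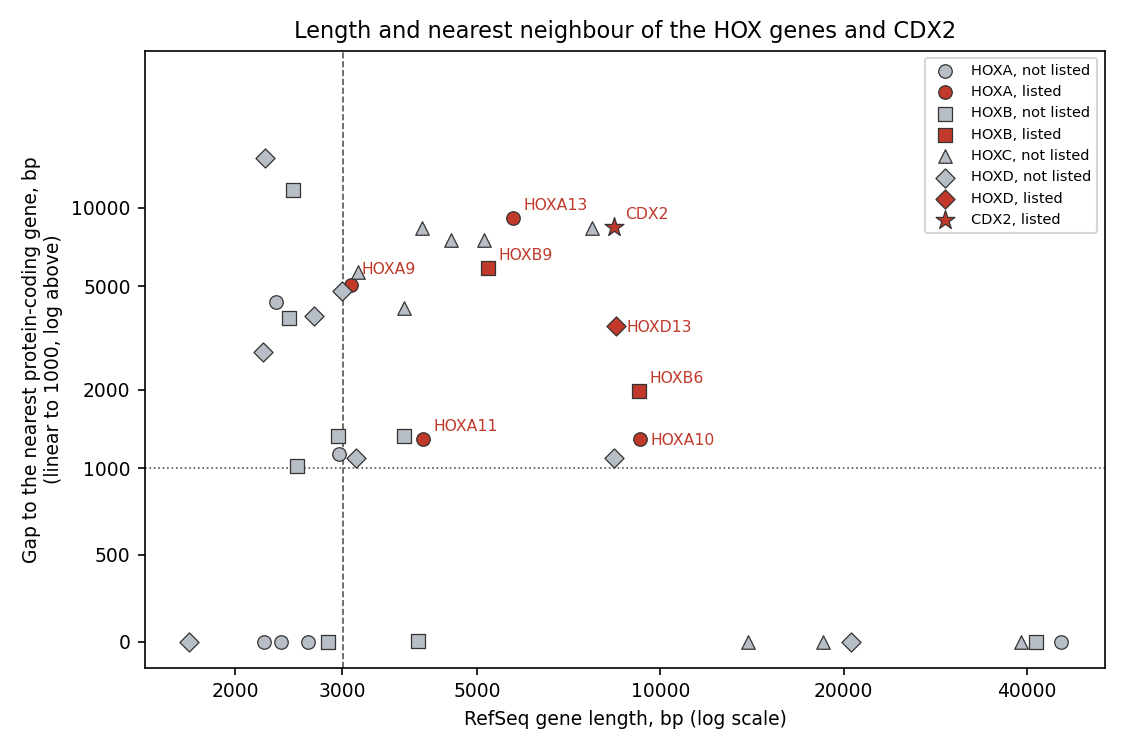
RefSeq gene length in bp (log axis) against the gap in bp to the nearest protein-coding gene (linear to 1000, log above) for the 38 HOX genes examined and CDX2, red where listed and grey where not, with marker shapes for clusters. The dashed line is the shortest entry (3005 bp) and the dotted line a gap of 1000 bp. All listed genes lie above and to the right of both lines, where 6 HOXC genes lie unlisted. For listed genes, a place to the right of the dashed line follows largely from how that line was set.

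By the authors' intervals, listed HOX genes were among the shortest entries of the whole list. HOXA10 measured 3050 bp, HOXA9 3073 bp and HOXD13 3144 bp, which placed these 3 genes among the 25 shortest entries, close to the lower limit of 3005 bp. The remaining members ran from 4076 bp (HOXA11) through 5434 bp (HOXB9), 5772 bp (HOXA13) and 8270 bp (CDX2) to 9236 bp (HOXB6). The median over all entries was 35481 bp. RefSeq extents are a different measure. They were just below the limit for HOXD8 (2991 bp), HOXA7 (2960 bp) and HOXB8 (2947 bp), and these 3 genes were not listed. By RefSeq extent HOXA9 measured 3100 bp, but HOXA10 9257 bp and HOXD13 8458 bp. The listed intervals of HOXA10 and HOXD13 start 6207 and 5314 bp downstream of the outermost RefSeq start.

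The HOXA genes formed the most compact group of neighbours in the list. HOXA9, HOXA10, HOXA11 and HOXA13 followed each other on the minus strand with no other entry between them, separated by 5094, 7502 and 9131 bp. The median gap between neighbouring entries was 91767 bp, and 6.81%, 10.5% and 12.4% of all 6457 gaps were no larger than these 3. From the lower end of HOXA9 to the upper end of HOXA13 the 4 entries took up 37698 bp. Of the 6409 runs of 4 neighbouring entries on a chromosome, 0 were shorter, the next being SH3BP1, PDXP, LGALS1 and NOL12 with 54002 bp, and the median was 800342 bp. HOXA9 to HOXA11 was likewise the shortest of 6433 runs of 3, at 22795 bp. The pair HOXA9 and HOXA10, at 11217 bp, had 1 shorter pair among 6457. Short genes and short gaps both enter these spans, and the run was noticed in the data before it was ranked.

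HOXA2 to HOXA7, the 6 genes next to HOXA9, were not listed. HOXB6 and HOXB9 were 16169 bp apart with the unlisted HOXB7 and HOXB8 between them. The next entry beyond HOXA13 was HIBADH, at 325306 bp. SNX11 lay 472149 bp from HOXB6 and TTLL6 135644 bp from HOXB9. HOXD13 had LNPK at 90544 bp, just under the median gap, and MTX2 at 173497 bp. These gaps were counted from the listed gene, so those to SNX11, TTLL6 and MTX2 run across unlisted HOX genes.

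Pause distances, counted in bp from the listed 5' end to the pause site along the gene's strand, ran from the commonest range in the list to its far end. The order was HOXA10 at 44 bp, HOXA13 at 62 bp, HOXB9 at 79 bp, HOXD13 at 106 bp, HOXA9 at 111 bp, HOXA11 at 281 bp, CDX2 at 285 bp and HOXB6 at 297 bp. The median of these HOX genes was 106 bp (7 genes, SD between genes 105 bp), beside 52 bp for all entries with quartiles of 38 and 84 bp. Counted from the outermost RefSeq start of each gene in place of the listed 5' end, the HOX median was 281 bp. With 1 site per gene, the precision of each value is unknown and neighbours in this order cannot be said to differ. The members fell into a group of 5 at 44 to 111 bp and a group of 3 at 281 to 297 bp, with nothing between.

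Of the 8 genes, 7 lay above the median of all entries, where 49.2% of entries lie. Distances over 100 bp were found in 5 of 8, beside 18.7% of all entries, and distances of 200 bp or more in 3 of 8, beside 5.32%. The 810 entries no longer than HOXB6, the longest of the 8, had a median of 53 bp, and 6.54% of them reached 200 bp. They were not matched to the 8 genes in length, and the part of gene length in these distances was not tested. These members were known to include extreme values when they were picked, so their share is not evidence about HOX genes in general.

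**Figure D3:**
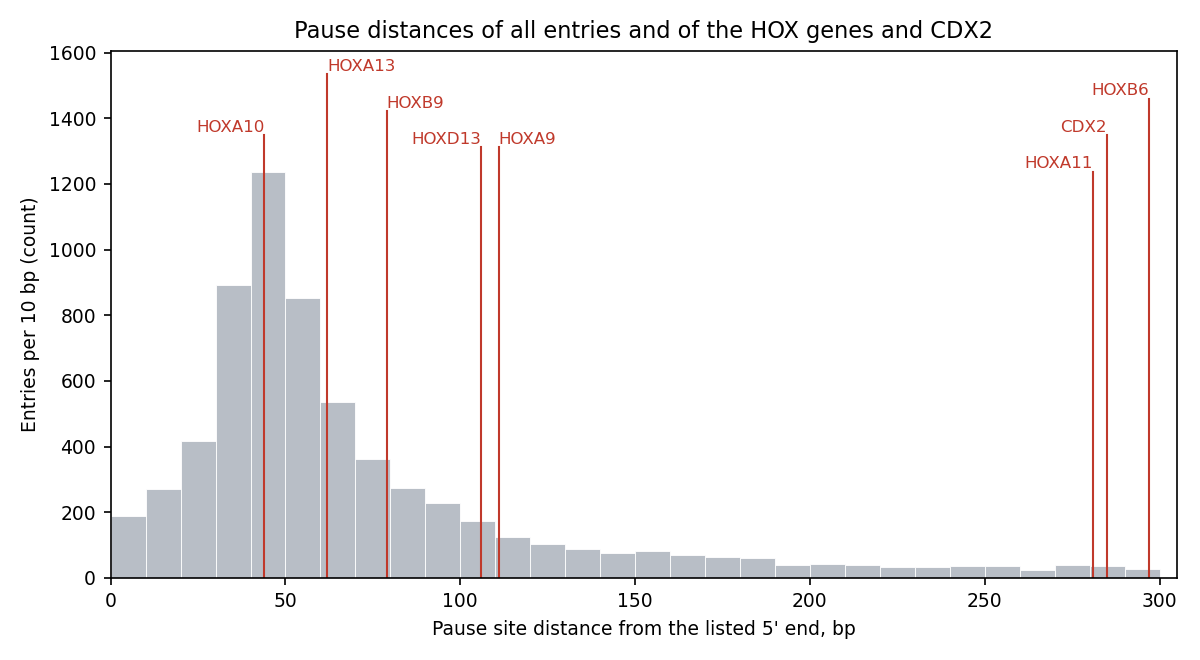
Pause distance in bp from the listed 5' end (horizontal) against the number of entries per 10 bp (grey bars, all 6481 entries), with a red line for each HOX gene and CDX2. HOXA10 stands in the tallest bar at 44 bp, and HOXA11, CDX2 and HOXB6 stand at 281 to 297 bp in the sparse end.

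In the HOXA cluster the distances did not follow gene order. From HOXA9 on they were 111 bp for HOXA9, 44 bp for HOXA10, 281 bp for HOXA11 and 62 bp for HOXA13. The 4 adjacent genes thus covered a range of 237 bp. HOXA10 (ENSG00000253293.6, chromosome 7, minus strand, 5' end 27173654, pause site 27173610), which acts in uterine and limb development, had a smaller distance than 4080 entries and shared its value with 125 others. It was the only one of the 8 genes below the overall median.

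HOXA13 and HOXD13, the paralogs that pattern the distal limb, hindgut and genital tract, were the only group 13 genes listed. HOXA13 (ENSG00000106031.9, 5' end 27200135, site 27200073) exceeded 61.4% of entries and HOXD13 (ENSG00000128714.6, chromosome 2, plus strand, 5' end 176092801, site 176092907) 82.7%. HOXA9 (ENSG00000078399.19, 5' end 27165510, site 27165399), a regulator of blood stem cells, exceeded 83.9%, and its paralog HOXB9 (ENSG00000170689.10, chromosome 17, minus strand, 5' end 48626589, site 48626510) 73.0%. The distances within these 2 pairs of paralogs were 62 and 106 bp, and 111 and 79 bp.

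The remaining members lay in the last percent of the distribution. HOXA11 (ENSG00000005073.6, chromosome 7, minus strand, 5' end 27185232, site 27184951), a gene of forearm, kidney and uterine development, had 63 entries at larger distances, and no other entry shared its 281 bp. CDX2 (ENSG00000165556.10, chromosome 13, minus strand, 5' end 27969187, site 27968902) had 49. HOXB6 (ENSG00000108511.10, chromosome 17, minus strand, 5' end 48604986, site 48604689) had 6, and 0 of the other 317 entries on its chromosome exceeded it. The largest distance in the list was 299 bp. Named entries with the same 297 bp as HOXB6 were CHKB, OCLN, PRR5 and TRIM33, and those with the 285 bp of CDX2 were AFF4, ARF6 and RAB26. The lists hold 1 value per gene, so no other likeness between genes could be measured.

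The 3' ends of all 8 entries were the same base as in RefSeq, but naming had required them to lie within 50 bp. The 5' ends did not have to match, except to settle the name of HOXA9, and were the same base in 2 of 8. The contrast between the ends is thus partly set by the naming rule. HOXA11 and HOXB6 started on the outermost RefSeq base and HOXA9 27 bp downstream of it. CDX2 started 128 bp downstream, HOXD13 5314 bp and HOXA10 6207 bp. HOXA13 and HOXB9 started 44 and 231 bp upstream of the outermost RefSeq base. A listed start more than 50 bp downstream was thus found in 3 of 8 genes, beside 32.1% of 5847 named entries, and an offset over 5000 bp in 2 of 8, beside 7.51%.

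For the genes with large offsets, RefSeq lists starts closer to the authors' choice. The RefSeq promoter table has a HOXD13 start 80 bp upstream of the listed end, so that the pause site was 186 bp from it. The nearest HOXA10 start was 666 bp upstream, which put the site at 710 bp. From these starts the sites of HOXA9, CDX2 and HOXA11 were at 138, 413 and 281 bp. The large distance of HOXA11 was thus the same from either annotation's start, and that of CDX2 was 285 bp from the authors' and 413 bp from RefSeq's. HOXB6 had no start in the promoter table, and its 297 bp was the same from the outermost RefSeq base only.

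For the genes listed farther upstream the change went the other way. The HOXA13 site was at 62 bp by the authors' interval and at 18 bp by RefSeq, and of the 6 genes with a RefSeq promoter window it is the only one whose site falls inside it. Its surrounding 29 bases are shown because they place the pause site directly, with the site in capitals.
HOXA13 pause site (chr7:27200059-27200087, minus strand): ggctcgggctatgaCagcctccgtgctcc
The HOXB9 site lay 152 bp upstream of the outermost RefSeq start of that gene, although it was 79 bp inside the authors' interval. Distances of single genes therefore depended on which start was used.

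**Figure D4:**
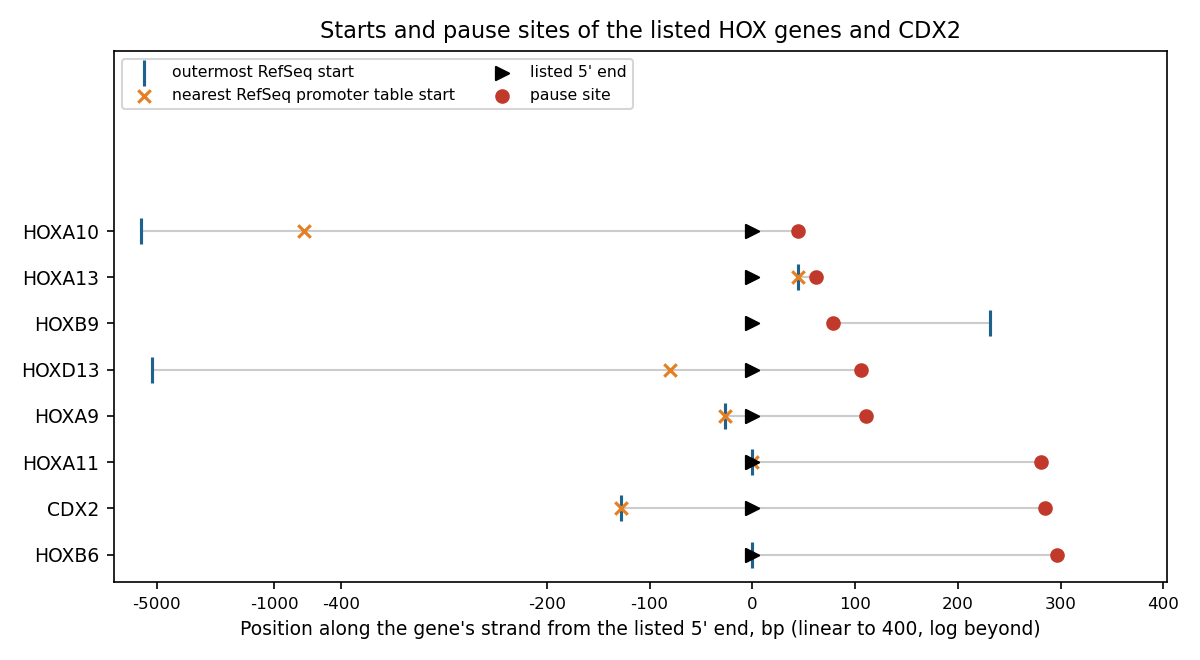
Starts and pause sites of the 8 genes in bp along the gene's strand from the listed 5' end at 0 (linear to 400, log beyond), with black triangles for the listed 5' end, blue bars for the outermost RefSeq start, orange crosses for the nearest start in the RefSeq promoter table and red points for the pause site. HOXA10 and HOXD13 have RefSeq starts more than 5000 bp upstream, and in HOXB9 the pause site precedes the RefSeq start.

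Noncoding genes lay close to several of these starts. A long noncoding RNA (lncRNA) gene covered or lay within 300 bp of the listed 5' end in 3 of 8 genes, beside 21.6% of all entries. HOXA11-AS lay 176 bp upstream of HOXA11 and HOTTIP 286 bp upstream of HOXA13. HOTTIP and HOXA11-AS have RefSeq promoters on the plus strand, opposite to HOXA13 and HOXA11, so both pairs are divergent. The pause site of HOXB6 lay within the extent of HOXB-AS3, whose promoter in the RefSeq table is also on the opposite strand. The sites of HOXA9 and HOXA10 lay within the extent of HOXA10-HOXA9, a readthrough gene on which both genes are joined. The sources used here do not say how the sites were called or whether the assay kept strand, and a contribution of these transcripts was not tested.

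CDX2 and its neighbour PDX1, the ParaHox gene that sets pancreatic identity, were listed side by side on chromosome 13, on opposite strands and 34604 bp apart. The PDX1 pause site was at 88 bp and that of CDX2 at 285 bp. Of 7 other ParaHox and cluster-flanking homeobox genes, PDX1 was the only one listed (14.3%), beside 29.3% of all coding genes. CDX1, CDX4, GSX1, GSX2, EVX1 and EVX2 were not, and 2 of the 7 are shorter than 3005 bp in RefSeq.

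HOX proteins bind DNA with cofactors of the PBX, MEIS and PKNOX families, and 4 of 9 such genes were listed (44.4%). These were PBX4 at 21 bp, PKNOX1 at 32 bp, PBX3 at 43 bp and MEIS2 at 85 bp. The 21 genes examined for chromatin regulators of HOX clusters covered MLL and Polycomb proteins, other histone-modifying enzymes and the insulator protein CTCF. Of these, 12 were listed (57.1%), with a median of 41.5 bp and a range of 17 to 148 bp. The listed share was 29.3% over all coding genes and 32.5% over those of at least 3005 bp. The H3K4 methyltransferase gene KMT2A stood at 30 bp and its partner WDR5 at 17 bp. EZH2, the Polycomb methyltransferase gene, stood at 28 bp, CTCF at 37 bp, and the demethylase gene KDM6A at 148 bp, the only one of the 12 over 100 bp.

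Intestinal transcription factors, the partners of CDX2 in gut epithelium, had 8 of the 15 genes examined in the list (53.3%). The share was 29.3% over all coding genes and 32.5% over those of 3005 bp or more, and 1 of the 15 is below that length. ELF3 stood at 10 bp, KLF4 at 31 bp and GATA6 at 39 bp. KLF5 and SOX9 stood at 46 bp and FOXA1, with the largest distance, at 47 bp. The median was 41 bp and none of the 8 passed 52 bp, the median of all entries, so CDX2 at 285 bp lay beyond every listed gene of this group. Presence in the list was also counted for markers of the line's labelled tissue, leaving out CDX2, which was chosen for being listed. Of the other 11 colon epithelium markers 5 were listed (EPCAM, CDH1, KRT18, KRT19 and KRT20). The rest, KRT8, VIL1, CDX1, LGR5, CDH17 and MUC2, were not. With CDX2 counted, 0 of 12 colon markers are below 3005 bp. The share to set beside them is thus 32.5%, that of coding genes of 3005 bp or more, and not the 29.3% over all lengths. Whether the listed markers are specific to colon was not tested. Of the fibroblast markers 0 of 8 were listed and of the blood markers 0 of 6, but 2 of these 6 are shorter than the shortest entry.

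**Figure D5:**
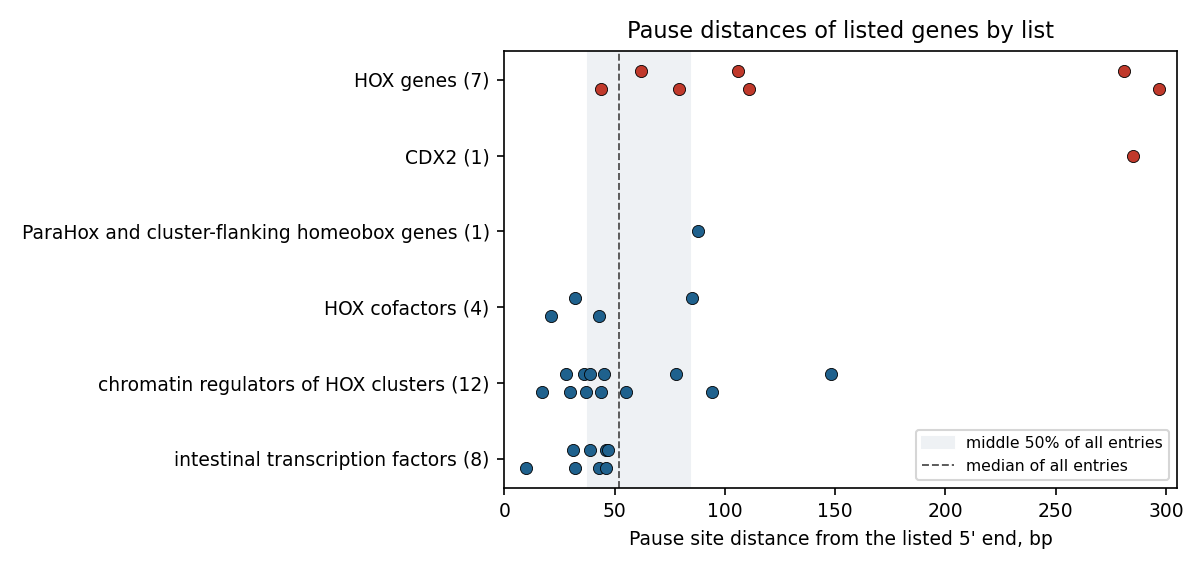
Pause distance in bp from the listed 5' end for listed genes, 1 point per gene and 1 row per list, with the number of listed genes in parentheses; the grey band spans the middle 50% of all entries (38 to 84 bp) and the dashed line is their median (52 bp). HOX genes reach 297 bp, while the listed intestinal factors shown end at 47 bp.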

How the data were processed

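The authors deposited 2 lists for the whole series, gene intervals and pause sites, as positions in bp on hg38, per their names and the submitters' processing notes. The sources used here do not say how sites were called. The notes name, without saying what each did, deepTools 3.1.1, Bowtie2 2.2.6 and cutadapt 1.14. Library signal was not analysed here, so no comparison between groups was made.

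Positions were written 1-based and the lists joined by Ensembl identifier. For naming, RefSeq (GRCh38.p14) gene boundaries were compared with the entry's 3' end, as set by the entry's strand. The gene's own strand was not compared. An entry took the name of the gene whose boundary there lay within 50 bp and which covered at least 50% of the entry (5822 entries). Among several such genes, the coding one with the nearest 5' end within 300 bp was taken, which named 25 more, HOXA9 among them (the other candidate was HOXA10-HOXA9). Readthrough genes were left out of neighbour gaps and of the background of 19942 coding genes. RefSeq extents cover all transcripts, so exons and introns were not assigned.

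The genes to be named were all HOX genes and CDX2, the entries next to them, listed members of the context lists and entries with the distances of HOXB6 and CDX2. Members, lists and rules were chosen with earlier results of these data known. Some genes covered by these rules and lists are not reported here. The naming step was tested on simulated data. Python 3.11.15, pandas 2.3.3, NumPy 2.4.6 and matplotlib 3.10.9 were used.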

Additional observations from a re-analysis of the deposited data

How the results depend on the processing

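The number of HOX and CDX2 entries depended on naming by position. It was 8 here and 8 where 3' ends could differ by 500 bp. It was 4 where a unique match with a reciprocal overlap of 80% and no other gene over 50% were required together, which left HOXA9, HOXA10, HOXB6 and HOXD13 unnamed. Alternatives chosen after seeing the data gave 6 with that overlap alone, under which HOXA10 and HOXD13 were unnamed, and 7 with unique matches alone, at 50 or 500 bp, under which HOXA9 was. The HOX median of 106 bp became 281 bp when counted from the outermost RefSeq start, because HOXA10 and HOXD13 then lie over 5000 bp away; leaving out 1 gene at a time gave 92.5 to 108.5 bp. The listed share of HOX genes was 18.4% of those examined and 30.4% of those at least 3005 bp long in RefSeq. It was 43.8% of those also without a coding gene within 1000 bp. The same shares over all coding genes were 29.3%, 32.5% and 42.1%. The median start offset of the 6 genes with a RefSeq promoter was 77.5 bp from the outermost start and 53.5 bp from the nearest one, an alternative chosen after seeing the data. Recomputed against entries of the same chromosome or those with starts within 50 bp of RefSeq, all 16 percentiles moved by under 5 points. No paired analysis was possible because the lists hold no samples. The depth behind each site is unknown.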
